A study of Mus musculus with 24 samples.

Results

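Endothelial identity and vessel subtype genes are the genes by which the inner lining of blood and lymph vessels is recognised, and by which its capillary, arterial, lymphatic and activated forms are told apart. The members were a list of 35 gene symbols, looked up in the annotation of the array. Of these, 34 were measured, each by 1 probe set, among the 13499 genes of the table. Selp (P-selectin) was not analysed here.

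Gene expression had been measured in total RNA of the right lung lobe from 24 samples of 6 inbred mouse strains, with 1 array per sample. In 17 samples the mice carried an inducible TGF-β1 transgene (TG) and in 7 they were wild type (WT). All mice, WT included, had received doxycycline in the drinking water for 2 weeks, which turns the transgene on, so that every comparison of TG with WT was made under the drug. C57BL/6J contributed 2 TG and 2 WT samples. Each of A/J, AKR/J, 129 (S129 in the labels), BALB/cJ and C3H contributed 3 TG samples and 1 WT sample. The series addresses genetic modifiers of TGF-β1-stimulated lung fibrosis. Its design text calls A/J, AKR/J and C57BL/6J prone and 129, BALB/cJ and C3H resistant. A fibrosis code attached to each sample, with its key, gives the opposite naming. The design text was followed, and under the other reading the sign of each prone minus resistant value turns. AKR/J and BALB/cJ were labelled emphysematous, 129 and C3H were labelled as not, and A/J and C57BL/6J carried no such label. The promoter that drives the transgene and the age and sex of the mice were not given in the sources used here. Nothing in the labels says how the samples of a group relate, beyond their numbers, so p-values measure the spread between these samples.

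The lung is built around a dense capillary bed. Its alveolar capillaries are made of a general capillary cell, which repairs the bed and expresses Gpihbp1, and of an aerocyte, which lies against the gas exchange surface and expresses Ednrb and Car4. Endothelial cells stay quiescent through angiopoietin signals to the receptor Tek, specify arteries through Notch ligands such as Dll4, and draw most of their gene programme from ETS and SOX transcription factors, among them Erg, Sox17 and Sox18. TGF-β is known to act on these cells as well as on fibroblasts, and loss of endothelial genes under TGF-β is a studied feature of fibrotic tissue.

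The DNA just upstream of the members' start sites is shown because Erg and the SOX factors are themselves members. Promoters were taken from RefSeq (mouse build GRCm38.p6), as the 250 bases before a start site. They were found for 23 of the 35 listed genes, in 28 windows. A pair of short motifs was searched on both strands: CAGGAAG or its reverse complement CTTCCTG, an ETS-type sequence, and CATTGT or its reverse complement ACAATG, a SOX-type sequence. The motifs do not overlap each other. The ETS-type letters occurred in 7 of the 28 windows (25%), against 10.8% of 32851 promoter windows of the same length. The SOX-type letters occurred in 3 of 28 (10.7%), against 10.7% of all windows. The 7 genes with the ETS-type letters were Adgrf5, Calcrl, Cd34, Emcn, Erg, Notch4 and Sele, and the 3 with the SOX-type letters were Calcrl, Erg and Notch4. In TG lungs 5 of the 7 were lower, beside 24 of all 34 measured members. Cd34 was higher and Emcn was not called. The windows of 4 of them are printed, 3 of genes that were lower and that of Cd34, and they read 5′ to 3′ on the gene's strand, with matches in capitals.
Calcrl, chr2:84425267-84425516, minus strand: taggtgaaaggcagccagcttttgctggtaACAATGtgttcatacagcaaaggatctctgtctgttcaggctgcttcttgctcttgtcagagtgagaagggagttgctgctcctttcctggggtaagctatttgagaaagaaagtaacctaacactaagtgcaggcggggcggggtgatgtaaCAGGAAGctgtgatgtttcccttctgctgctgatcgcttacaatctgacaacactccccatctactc
Notch4, chr17:34564045-34564294, plus strand: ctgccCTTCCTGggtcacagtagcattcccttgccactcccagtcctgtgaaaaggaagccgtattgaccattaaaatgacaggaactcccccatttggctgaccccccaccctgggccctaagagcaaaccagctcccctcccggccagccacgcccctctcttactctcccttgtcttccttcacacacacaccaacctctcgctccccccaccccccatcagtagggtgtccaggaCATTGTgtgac
Adgrf5, chr17:43360181-43360430, plus strand: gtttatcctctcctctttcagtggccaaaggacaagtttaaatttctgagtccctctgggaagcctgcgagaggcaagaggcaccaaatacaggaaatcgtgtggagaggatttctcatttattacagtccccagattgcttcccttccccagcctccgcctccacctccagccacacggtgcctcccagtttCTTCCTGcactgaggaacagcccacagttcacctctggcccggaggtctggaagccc
Cd34, chr1:194938571-194938820, plus strand: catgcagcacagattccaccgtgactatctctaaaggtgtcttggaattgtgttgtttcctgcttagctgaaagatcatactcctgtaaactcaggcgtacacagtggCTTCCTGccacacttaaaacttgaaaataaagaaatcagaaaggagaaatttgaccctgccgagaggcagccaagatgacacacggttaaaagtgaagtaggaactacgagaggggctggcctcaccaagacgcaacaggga
A match is a run of letters in this window and was not tested for binding. The windows of Tek, Esm1, Ednrb and Clec14a, which gave some of the lower values in TG lungs, held neither run of letters.

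Most of these endothelial genes, a list chosen with earlier results of these data known, were lower in TG than in WT lungs. With the strains fitted as fixed effects, 24 of the 34 measured members were lower (all genes: 13.5% lower), 3 were higher (all genes: 13.2% higher) and 7 did not pass the threshold, an adjusted p under 0.05 by limma over all 13499 genes. The 3 higher members were Cd34, Procr and Prox1. The members' median difference was -0.29 log2 units, beside -0.0006 over all genes. In 14 members every TG mouse lay below every WT mouse of its own strain in all 6 strains, as did 3.68% of all genes. In 7 more members this held in 5 strains, a pattern not counted over all genes. In bulk tissue, fewer endothelial cells and less RNA per endothelial cell cannot be told apart. Of the 34 members, 29 had probe set signals above the upper quartile of all genes' mean signals and 0 lay below the lower quartile. The files used here give no detection call.

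**Figure D1:**
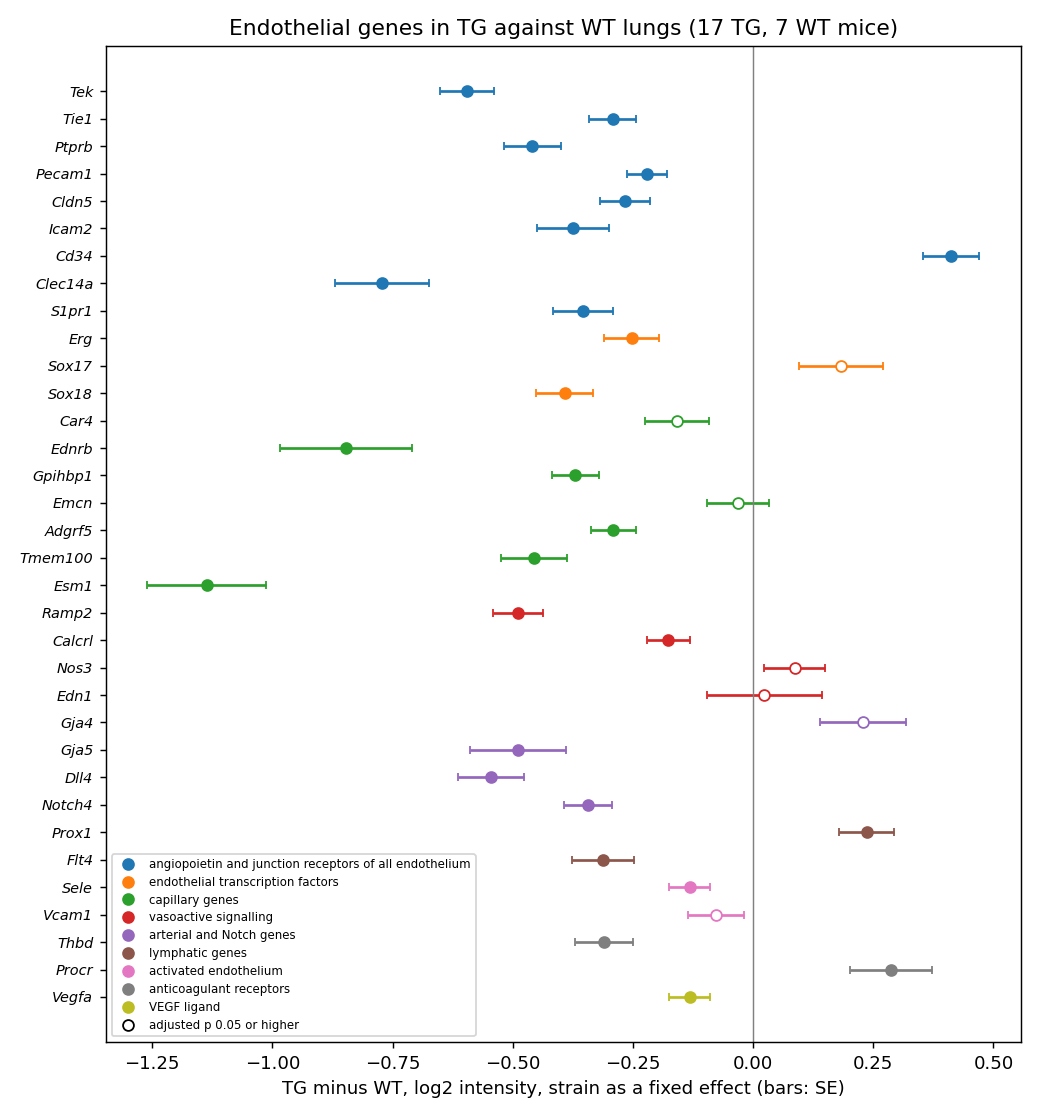
TG minus WT difference (log2 intensity, x axis) of each of the 34 measured members, grouped by role and coloured by role. Points are limma estimates with strain as a fixed effect over 17 TG and 7 WT mice, bars are SE, and open points had an adjusted p of 0.05 or higher. Points left of 0 are lower in TG lungs, from -1.14 for Esm1, and Cd34 lies farthest to the right at 0.41.

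Among the receptors and surface molecules of all endothelium, 8 of 9 fell and 1, Cd34, rose. Tek (Tie2), the receptor of the angiopoietins, was at 11.37, 11.85 and 12.16 (lowest, median and highest of the 17 TG mice, log2 intensity) and at 12.24, 12.36 and 12.56 in the 7 WT mice. The groups did not overlap: Tek and Ptprb were the 2 members in which every TG mouse lay below every WT mouse over all strains, as did 0.615% of all genes. The difference for Tek was -0.60 ± 0.06 (log2 ± SE, adjusted p = 1.03e-07), a 1.51-fold lower level. Ptprb (VE-PTP), the phosphatase that restrains Tek, ranged from 12.25 to 12.94 in TG mice (median 12.72) and from 12.96 to 13.16 in WT mice (median 13.10), with a difference of -0.46 ± 0.06 (adjusted p = 5.31e-06). Tie1, the partner receptor of Tek, fell by 0.29 ± 0.05 (adjusted p = 0.000119). In each of the 6 strains its TG mice lay below the WT mice.

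Clec14a, an endothelial lectin-like adhesion receptor, showed the largest fall of this group. It was at 9.31, 10.07 and 10.50 in TG mice and at 10.27, 10.76 and 10.89 in WT mice, a difference of -0.77 ± 0.10 (1.71-fold, adjusted p = 4.92e-06). The ranges overlapped over all strains but not within any strain. S1pr1, the sphingosine-1-phosphate receptor that tightens the vessel barrier, fell by 0.35 ± 0.06 (adjusted p = 0.000198). The adhesion molecule Icam2 fell by 0.38 ± 0.08 (adjusted p = 0.000669), with its TG mice below the WT mice in 4 strains.

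The junction molecules moved less. Cldn5, the main claudin of endothelial tight junctions, fell by 0.27 ± 0.05 (adjusted p = 0.000503), and Pecam1, which joins endothelial cells at their borders, fell by 0.22 ± 0.04 (adjusted p = 0.000346). Platelets carry Pecam1 too, and 5 of 7 measured platelet genes were lower in TG mice. The mean log2 level of the platelet list was 7.67 to 8.11 in TG mice and 7.96 to 9.80 in WT mice, with the top value in the WT mouse of BALB/cJ. The part of platelets in the Pecam1 result was not tested.

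Cd34, a sialomucin carried by endothelial cells, stromal fibroblasts and blood progenitors, went the other way. Its lowest, median and highest values were 12.36, 12.56 and 13.03 in TG mice and 12.02, 12.25 and 12.46 in WT mice. In each strain all TG mice were above the WT mice, a pattern found for 1 member and for 4.02% of all genes. The difference was 0.41 ± 0.06 (adjusted p = 1.71e-05). Of 7 fibroblast markers, which could share the source of Cd34 RNA, 3 rose (Col1a1 by 1.02, Col3a1 by 0.97 and Lum by 0.45), 3 fell and 1 was not called. Those that fell included Tcf21 (9.34 to 11.10 in TG and 10.27 to 11.39 in WT mice) and Fgfr4 (8.17 to 10.18 and 9.44 to 10.39). In each strain the TG mice lay below the WT mice for both. The mean of that list was 10.54 to 10.90 in TG mice and 10.41 to 10.77 in WT mice, and its part in the Cd34 result was not tested.

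Of the endothelial transcription factors, Sox18, which acts in vessel and lymphatic development, fell by 0.39 ± 0.06 (adjusted p = 4.43e-05) and Erg, an ETS factor that maintains endothelial identity, fell by 0.25 ± 0.06 (adjusted p = 0.00183). Sox18 was at 9.93 to 10.70 in TG mice and at 10.41 to 10.93 in WT mice, and within each strain the TG mice lay below. Sox17, a factor of arterial endothelium, had values of 9.51 to 10.44 in TG and 9.51 to 10.00 in WT mice and did not pass the threshold (0.18 ± 0.09, adjusted p = 0.138). Its difference ran from -0.10 in A/J to 0.64 in C3H.

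Among the 7 capillary genes 5 fell and 2 (Car4 and Emcn) were not called. Esm1 (endocan), a proteoglycan secreted by endothelial tip cells, gave the largest difference of all members. Its values were 6.88, 7.38 and 8.02 in TG mice (lowest, median and highest) and 7.57, 8.68 and 9.37 in WT mice, and the difference was -1.14 ± 0.12 (2.2-fold, adjusted p = 6.2e-07). All TG mice lay below the WT mice of their strain. By its mean over all 24 arrays, Esm1 was at percentile 39.6 of all genes. Its TG values lay between the lower quartile (6.77) and the median (8.31) of all genes' means. Whether a lower limit of the signal bounded the TG values was not tested.

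Ednrb, the endothelin receptor of aerocytes, which clears endothelin from the circulation, was at 9.29, 10.70 and 11.22 in TG mice and at 11.05, 11.34 and 11.49 in WT mice. The difference was -0.85 ± 0.14 (1.80-fold, adjusted p = 7.48e-05). Its TG mice were below the WT mice in 5 strains, and AKR/J was the exception. Car4, carbonic anhydrase 4 and the other aerocyte marker, did not pass the threshold (-0.16 ± 0.07, adjusted p = 0.0861). It was called lower without the WT mouse of AKR/J (-0.21, adjusted p = 0.0247) and without TG mouse 2 of 129 (-0.17, adjusted p = 0.0482).

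Tmem100, a target of BMP signalling in endothelium, fell by 0.46 ± 0.07 (adjusted p = 3.58e-05). Gpihbp1, which carries lipoprotein lipase on capillaries, fell by 0.37 ± 0.05 (adjusted p = 7.85e-06), and Adgrf5, an adhesion receptor of lung endothelium and type 2 epithelium, fell by 0.29 ± 0.05 (adjusted p = 6.77e-05). In each of these 3 genes every TG mouse lay below the WT mice of its strain in all 6 strains. Emcn (endomucin), a sialomucin of capillaries and veins, was at 11.60 to 12.22 in TG and 11.80 to 12.09 in WT mice, with a difference of -0.03 ± 0.06 (adjusted p = 0.771).

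**Figure D2:**
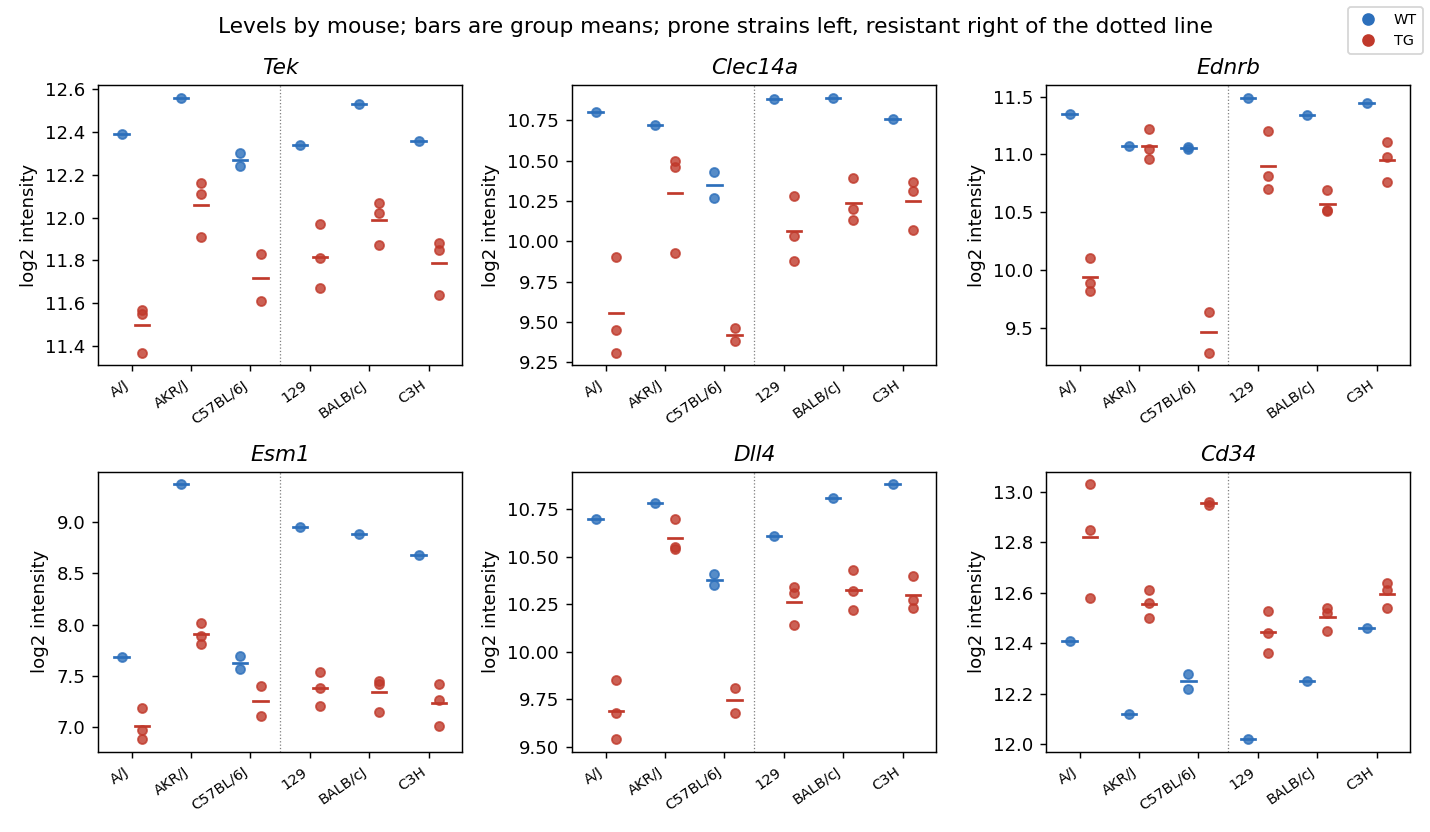
Log2 intensity (y axis) of Tek, Clec14a, Ednrb, Esm1, Dll4 and Cd34 in every mouse, by strain (x axis), with WT mice in blue, TG mice in red and bars at group means. TG mice lie below WT mice in every strain for Tek, Clec14a, Esm1 and Dll4, and above them for Cd34. The Ednrb values of the AKR/J TG mice (10.96, 11.05 and 11.22) straddle the AKR/J WT value of 11.07.

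The vasoactive genes divided. Ramp2 and Calcrl, the partner protein and the receptor that together bind adrenomedullin, both fell. Ramp2 was at 10.79, 11.42 and 11.61 in TG mice and at 11.38, 11.74 and 11.95 in WT mice, a difference of -0.49 ± 0.05 (1.40-fold, adjusted p = 5.52e-07), and Calcrl differed by -0.18 ± 0.05 (adjusted p = 0.00533). Nos3, the endothelial nitric oxide synthase, and Edn1, which encodes the vasoconstrictor endothelin-1, did not pass the threshold. Nos3 was at 8.19 to 9.02 in TG and 8.10 to 8.99 in WT mice (0.09 ± 0.06, adjusted p = 0.363). Edn1 was at 10.16 to 11.30 and 9.83 to 11.01 (0.02 ± 0.12, adjusted p = 0.916).

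Of the 4 arterial and Notch genes 3 fell. Dll4, the Notch ligand of arteries and tip cells, was at 9.54, 10.27 and 10.70 in TG mice and at 10.35, 10.70 and 10.88 in WT mice, and fell by 0.54 ± 0.07 (1.46-fold, adjusted p = 4.54e-06). Notch4, the Notch receptor largely restricted to endothelium, fell by 0.34 ± 0.05 (adjusted p = 2.2e-05). For both, all TG mice lay below the WT mice in each strain.

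The connexins of arterial gap junctions differed from each other. Gja5 (connexin 40) was at 9.02, 9.98 and 10.48 in TG mice and at 9.78, 10.23 and 10.72 in WT mice, and fell by 0.49 ± 0.10 (adjusted p = 0.000777). Gja4 (connexin 37) was at 9.55 to 10.51 and 9.43 to 10.06 and was not called (0.23 ± 0.09, adjusted p = 0.0613). It was called higher without the WT mouse of BALB/cJ (0.28, adjusted p = 0.0305), without TG mouse 3 of BALB/cJ (0.25, adjusted p = 0.0282) or without TG mouse 1 of 129 (0.25, adjusted p = 0.0392). Gja5 is also expressed by heart muscle, which surrounds the lung veins of mice. Of 7 measured heart muscle genes 6 were lower in TG mice, with a median difference of -0.75. The mean log2 level of that list was 9.39 to 10.65 in TG and 10.49 to 10.95 in WT mice, and its part in the Gja5 result was not tested.

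The lymphatic genes moved in opposite directions. Prox1, the factor that sets lymphatic identity, rose by 0.24 ± 0.06 within strains (adjusted p = 0.00394). Its pooled medians were the same in TG and WT mice (7.26), while its level differed among strains and its mean was higher in TG than in WT mice in each of the 6. It was called neither without C57BL/6J (0.18, adjusted p = 0.0514) nor with strain as a random block (0.21, adjusted p = 0.0692), and its mean level was at percentile 32.8 of all genes. Flt4 (VEGF receptor 3), which marks lymphatic and sprouting endothelium, fell by 0.31 ± 0.06 (adjusted p = 0.000872).

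Of the 2 measured genes of activated endothelium 1 fell. Sele (E-selectin), which captures leukocytes on inflamed vessels, fell by 0.13 ± 0.04 (adjusted p = 0.0255). Its call was lost without the WT mouse of AKR/J (-0.10, adjusted p = 0.109) or of C3H (-0.10, adjusted p = 0.0998), without WT mouse 1 of C57BL/6J (-0.12, adjusted p = 0.053) and without TG mouse 1 of C57BL/6J (-0.12, adjusted p = 0.0535). Vcam1, an adhesion molecule of inflamed endothelium, was at 10.09 to 10.60 in TG and 10.23 to 10.72 in WT mice and was not called (-0.08 ± 0.06, adjusted p = 0.371).

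Thbd (thrombomodulin) and Procr (the endothelial protein C receptor) act together to activate protein C, the body's anticoagulant enzyme. Thbd was at 11.58, 12.06 and 12.28 in TG mice and at 12.23, 12.31 and 12.50 in WT mice, a fall of 0.31 ± 0.06 (adjusted p = 0.000518) with all TG mice below the WT mice in every strain. Procr was at 8.07, 8.73 and 8.96 in TG mice and at 7.68, 8.22 and 8.66 in WT mice, a rise of 0.29 ± 0.09 (adjusted p = 0.0152). The rise of Procr was not called without the WT mouse of AKR/J (0.20, adjusted p = 0.0785) or of A/J (0.25, adjusted p = 0.0605).

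Vegfa, the growth factor that maintains lung capillaries and comes mainly from type 1 epithelium, fell by 0.13 ± 0.04 (adjusted p = 0.0235). Its values were 12.21 to 12.88 in TG and 12.50 to 12.82 in WT mice, and in AKR/J it lay in the other direction (0.09 ± 0.08, adjusted p = 0.735). The call was lost without the WT mouse of A/J (-0.09, adjusted p = 0.133) or of 129 (-0.13, adjusted p = 0.0563) and without TG mouse 2 of C57BL/6J (-0.12, adjusted p = 0.0514). Of the 7 measured markers of type 1 epithelium 0 were called, and their list mean was 11.86 to 12.51 in TG and 12.07 to 12.47 in WT mice.

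The same comparison was read for other genes of the pathways, from lists holding no member. Like the members, these lists were chosen with earlier results of these data known, so they are not a separate test. Of 16 measured genes of all endothelium, 15 were lower and 0 were higher, with a median of -0.33. Cavin2, a caveolar coat protein, fell by 0.73 ± 0.11, Eng (endoglin), a TGF-β family co-receptor, by 0.46 ± 0.05, Ctla2a by 0.46 ± 0.09 and She by 0.40 ± 0.07. The transcription factor Tal1 was the 1 gene not called (-0.07 ± 0.05). Of 6 measured lung capillary genes 4 were lower, among them Fabp4, a fatty acid carrier also made by macrophages (-1.02 ± 0.17), and Kitl, the ligand of Kit (-0.30 ± 0.06).

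Of 11 further arterial and Notch genes 4 were lower, 2 were higher and 5 were not called. The lower genes were Hey1 (-0.46 ± 0.06), a Notch target, Sema3g (-0.44 ± 0.05), an arterial semaphorin, the receptor Notch1 (-0.41 ± 0.05) and the ligand Jag1 (-0.15 ± 0.05). The higher genes were Fbln5 (0.67 ± 0.06), an elastic fibre protein also made by smooth muscle and fibroblasts, and Heyl (0.36 ± 0.07), a Notch target of mural cells. In the BMP receptor pathway of endothelium 3 of 6 were lower: the receptors Acvrl1 (-0.37 ± 0.05) and Bmpr2 (-0.27 ± 0.04) and the mediator Smad9 (-0.25 ± 0.06).

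The ligands and the venous genes were mixed. Of 5 measured VEGF and angiopoietin genes, Pgf (placental growth factor) was higher (0.30 ± 0.08), Angpt1, the ligand that activates Tek, was lower (-0.30 ± 0.08) and 3 were not called. Of 4 venous and activated genes, the hyaluronan receptor Cd44, which leukocytes and fibroblasts also carry, was higher (0.75 ± 0.08), as was Ackr1, the chemokine-binding receptor of venules (0.25 ± 0.09). Nfkbia, the NF-κB inhibitor, was lower (-0.24 ± 0.05). The further lymphatic list had 1 measured gene, Pdpn, which type 1 epithelium also expresses and which was not called (-0.01 ± 0.06).

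To see which members moved apart from the endothelial genes as a whole, each array's mean over the 16 further genes of all endothelium was subtracted. That scale was chosen after seeing the data and is given without a test, and on it the median of all genes stood at 0.33. On this relative scale 8 members lay lower by over 2 SE, 14 lay higher by over 2 SE and 12 lay within 2 SE of 0. A gene without a TG effect lies near 0.33 on it, and the shares of all genes were not counted. The 14 include Pecam1, Calcrl, Sele and Vegfa, which were called lower on the array scale. The lower members were Esm1 (-0.81 ± 0.13), Ednrb (-0.52 ± 0.11), Clec14a (-0.45 ± 0.07), Tek (-0.27 ± 0.05), Dll4 (-0.22 ± 0.06), Ramp2 (-0.16 ± 0.05), Ptprb (-0.13 ± 0.05) and Tmem100 (-0.13 ± 0.05). With any 1 strain left out, the relative difference of Esm1 ran from -1.02 to -0.72 and that of Ednrb from -0.66 to -0.32.

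The higher members on the relative scale began with Cd34 (0.74 ± 0.07), Procr (0.61 ± 0.10), Prox1 (0.56 ± 0.07), Gja4 (0.56 ± 0.08), Sox17 (0.51 ± 0.08) and Nos3 (0.41 ± 0.08). Gja4, Sox17 and Nos3 had not passed the threshold on the array scale. The other arterial and Notch members lay lower or near 0 on the relative scale, with Gja5 at -0.16 ± 0.10 beside the Dll4 and Notch4 values. The members near 0, which fell about as much as the reference genes, included Tie1 (0.03 ± 0.05), Thbd (0.02 ± 0.05), Flt4 (0.01 ± 0.07) and Notch4 (-0.02 ± 0.04).

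**Figure D3:**
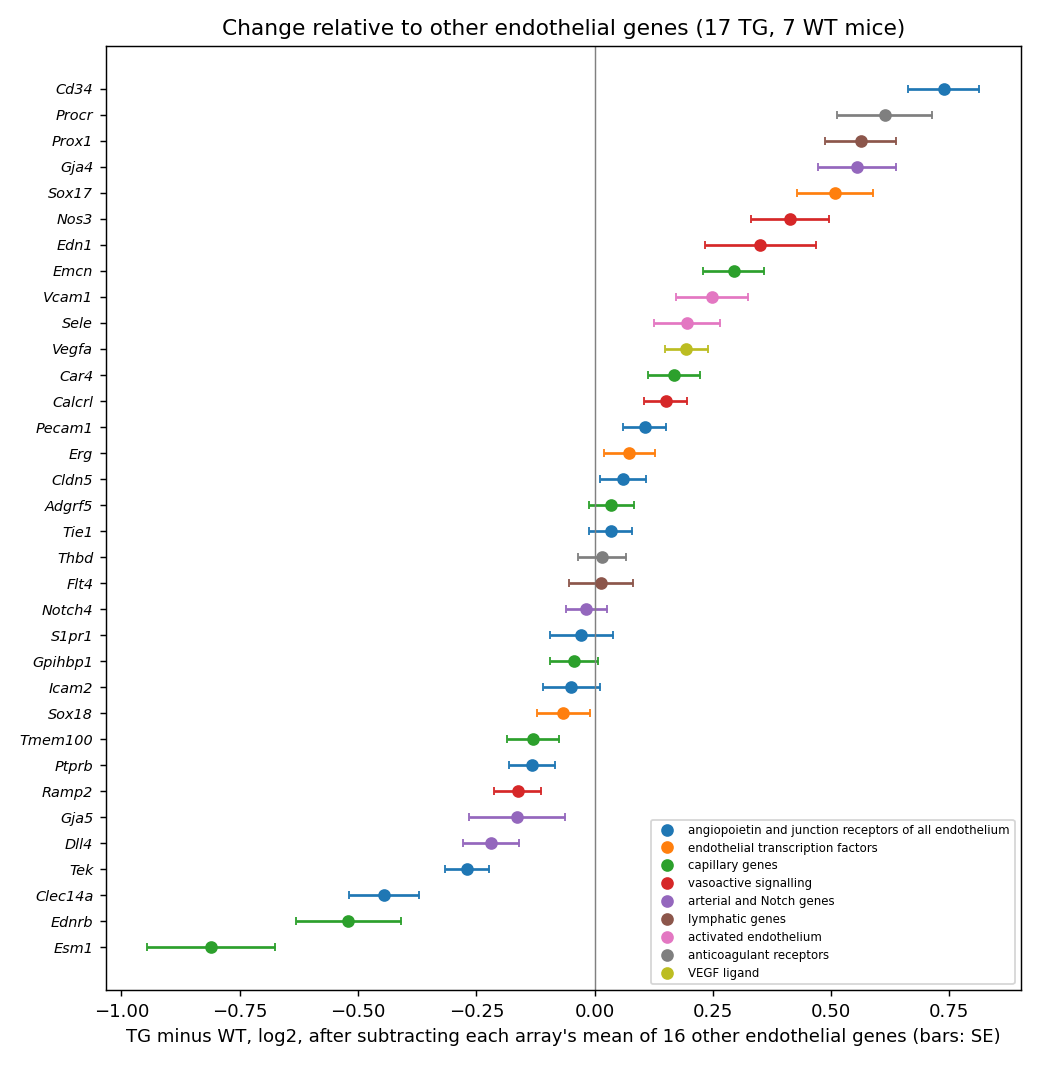
TG minus WT difference (log2, x axis) of the 34 measured members after each array's mean over 16 other endothelial genes was subtracted, ordered from lowest to highest and coloured by role. Points are limma estimates with strain as a fixed effect over 17 TG and 7 WT mice and bars are SE. Esm1, Ednrb and Clec14a lie farthest to the left, and Cd34, Procr, Prox1, Gja4 and Sox17 farthest to the right.

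The count of lower members differed by strain. In A/J 23 members were called lower and 1, Cd34, higher, where 8.08% and 6.80% of all genes were called. In C57BL/6J 16 were lower and 2, Cd34 and Prox1, were higher (all genes: 7.39% and 6.96%). In BALB/cJ 5 members were lower (1.27%), in 129 3 (1.39%), in AKR/J 3 (0.570%) and in C3H 3 (0.333%), and in these 4 strains 0 were higher by limma (0.993%, 1.56%, 1.54% and 0.489%), with 1, 1, 2 and 1 higher at an unadjusted p under 0.05. The members' median difference was -0.52 in A/J, -0.29 in C57BL/6J, -0.23 in BALB/cJ, -0.22 in AKR/J, -0.21 in 129 and -0.15 in C3H, beside medians of all genes from -0.02 to 0.02. A/J gave the lowest difference for 19 members, and the share of all genes with their lowest difference there was not counted.

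In all, 5 of the 6 strains had 1 WT mouse, whose spread was taken from the other groups. The counts moved with single mice and with weights on the arrays. With array weights 12 members were lower and 0 higher in A/J, fewer than the 15 lower in C57BL/6J, with 1 lower in AKR/J and 2 lower in BALB/cJ. C57BL/6J had 9 lower members without its WT mouse 2 or TG mouse 1, and 10 without its WT mouse 1 or TG mouse 2. BALB/cJ had 2 without its TG mouse 1 or 3 and 3 without either WT mouse of C57BL/6J, and AKR/J had 1 without its TG mouse 1 or 2. The count in 129 was 1 without its TG mouse 3, TG mouse 1 of C3H or either WT mouse of C57BL/6J and 5 without TG mouse 3 of A/J, and C3H had 1 without its TG mouse 2.

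**Figure D4:**
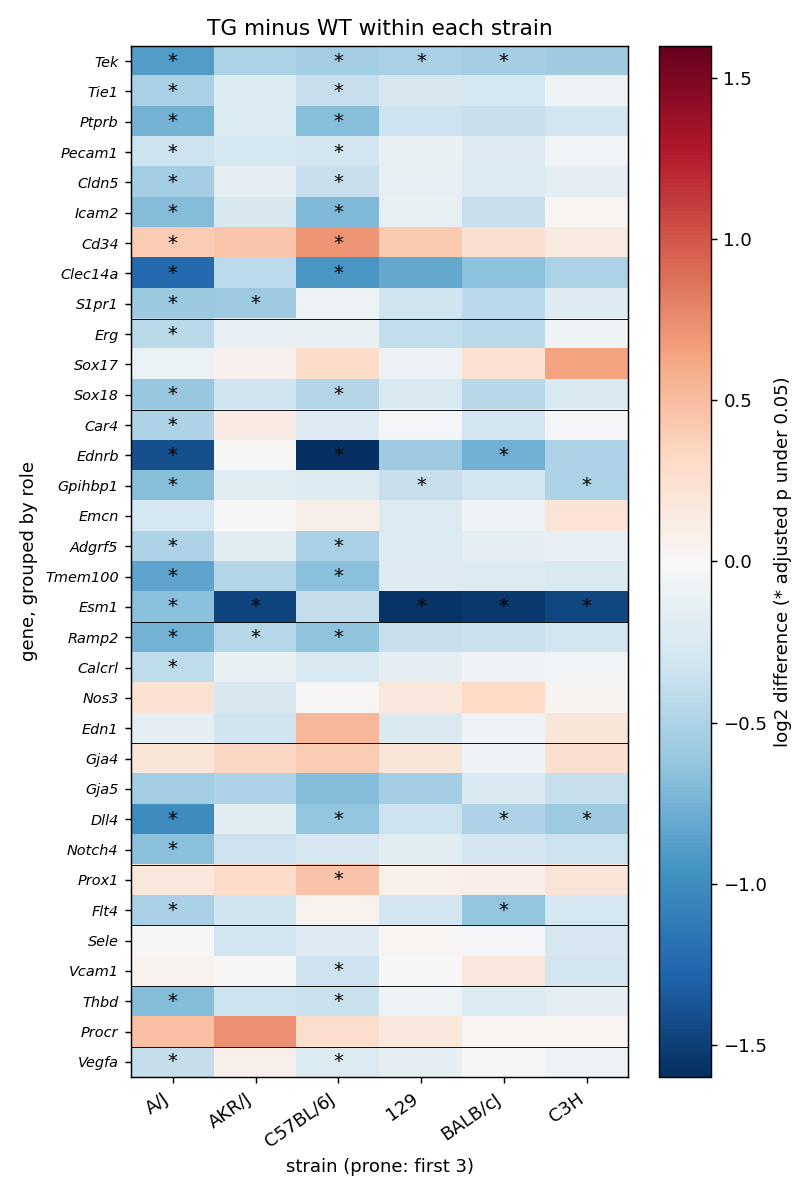
TG minus WT difference (colour, log2 units, blue lower and red higher) of the 34 measured members (rows, grouped by role) in each strain (columns, the prone strains first). Stars mark an adjusted p under 0.05 in limma's fit of 12 group means. Blue covers most of the A/J column, the Cd34 row is red in every strain, and Ednrb is near 0 in AKR/J while reaching -1.59 in C57BL/6J.

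The members Ednrb and Esm1 differed among strains in the size of their TG effect. Limma's moderated F test of strain dependence called 2 of 34 members, against 1.34% of all genes (adjusted p = 0.0125 for Ednrb and 0.0204 for Esm1). For Ednrb, the WT and TG values in A/J were 11.35 and then 9.82, 9.89 and 10.11, and in C57BL/6J they were 11.05 and 11.06 and then 9.29 and 9.64. In AKR/J the WT mouse had 11.07 and the TG mice 10.96, 11.05 and 11.22, so that WT and TG overlapped there. The differences were -1.59 ± 0.16 in C57BL/6J, -1.41 ± 0.18 in A/J, -0.76 ± 0.18 in BALB/cJ, -0.58 ± 0.18 in 129, -0.49 ± 0.18 in C3H and 0.01 ± 0.18 in AKR/J.

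For Esm1 the smallest falls were in C57BL/6J and A/J, and its WT level differed among strains. WT Esm1 was 7.68 in A/J and 7.57 and 7.69 in C57BL/6J, but 8.68 in C3H, 8.89 in BALB/cJ, 8.95 in 129 and 9.37 in AKR/J. The TG values lay closer together, at 6.88, 6.97 and 7.19 in A/J, 7.11 and 7.40 in C57BL/6J, 7.01 to 7.54 over the resistant strains, and 7.81, 7.89 and 8.02 in AKR/J. Its differences were -0.38 ± 0.15 in C57BL/6J and -0.67 ± 0.17 in A/J, and from -1.57 to -1.45 in the other strains. The call for Ednrb was lost without the WT mouse of AKR/J, which takes AKR/J out of that test. The call for Esm1 was lost without WT mouse 1 or TG mouse 1 of C57BL/6J. With array weights 0 members were called for strain dependence.

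Set by set, the TG effect was called in more members in the prone strains. Averaged over the 3 prone strains, 24 members were lower and 3 higher (all genes: 11.5% and 12%), with a median of -0.36. Over the 3 resistant strains 14 were lower and 1, Cd34, was higher (all genes: 5.78% and 4.92%), with a median of -0.16. The count in the resistant strains was 9 lower and 0 higher without the WT mouse of BALB/cJ, and 0 higher without the WT mouse of 129. Without its only WT mouse, a strain no longer enters the effect of its set. Tmem100 fell by 0.66 ± 0.07 in the prone strains (adjusted p = 3.5e-06) and differed by -0.23 ± 0.07 in the resistant strains (adjusted p = 0.0561). For Icam2 the values were -0.56 ± 0.07 and -0.16 ± 0.07, and for Thbd -0.46 ± 0.07 and -0.15 ± 0.07.

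A direct test of the difference between the sets called 1 member. Esm1 was higher by 0.69 ± 0.14 in the prone minus resistant effect (adjusted p = 0.0394), with effects of -0.84 ± 0.09 and -1.52 ± 0.10, where 0.252% of all genes were called higher and 0.222% lower. No member was called lower by limma, and 8 were lower at an unadjusted p under 0.05, among them Tmem100 (-0.44 ± 0.10, adjusted p = 0.0614) and Icam2 (-0.40 ± 0.10, adjusted p = 0.0904). The larger number of calls in the prone strains was thus not matched by called differences in effect.

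The calls changed when single mice were left out. Leaving out the only WT mouse of a strain takes that strain out of the effect of its set. The Esm1 call was lost in 13 of the 24 fits that left out 1 mouse, with values between 0.60 (without the WT mouse of A/J) and 1.00 (without the WT mouse of AKR/J). It was lost when C57BL/6J was left out (0.46, adjusted p = 0.314), with array weights (0.67, adjusted p = 0.131) and after quantile normalisation (0.68, adjusted p = 0.0612). Without the WT mouse of AKR/J 5 members were called lower: Ednrb (-0.89), Icam2 (-0.55), Tmem100 (-0.53), Ptprb (-0.38) and Adgrf5 (-0.34).

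Levels within TG lungs differed among the 6 strains in 32 of 34 members (all genes: 31.4%). The lowest TG mean was in A/J for 14 of the 34 (13.2% of all genes had it there) and in C57BL/6J for 13 (30.8%). The highest was in AKR/J for 14 (26.9%) and in C3H for 12 (10.6%). For 1 member the lowest TG mean was in AKR/J, which is named prone (13.9%). No member (0 of 34) had TG mice of the prone and resistant strains without overlap (all genes: 0.126%).

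Between TG mice of the prone and resistant strains, 16 members were lower and 2 higher in the prone strains (all genes: 4.69% and 6.44%). Ednrb was at 9.29, 10.00 and 11.22 (lowest, median and highest) in the 8 prone TG mice and at 10.51, 10.76 and 11.20 in the 9 resistant TG mice, a difference of -0.65 ± 0.08 (adjusted p = 4.81e-05). Gja5 was at 9.02, 9.78 and 10.07 and at 9.76, 10.25 and 10.48, a difference of -0.57 ± 0.11 (adjusted p = 0.00318). The ranges overlapped for both genes. Icam2 was lower by 0.44 ± 0.05, Clec14a by 0.43 ± 0.09, Tmem100 by 0.40 ± 0.05, Ramp2 by 0.36 ± 0.05 and S1pr1 by 0.35 ± 0.06. AKR/J, a prone strain, had the highest TG mean of the 6 strains for Ednrb (11.08), Clec14a (10.30) and Ramp2 (11.49). Its means of Icam2 (10.08) and Tmem100 (12.33) lay within the range of the resistant strains' means. Those of Gja5 (9.97) and S1pr1 (11.71) lay below that range.

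Cd34 (0.26 ± 0.05, adjusted p = 0.00292) and Nos3 (0.22 ± 0.06, adjusted p = 0.0274) were higher in the prone TG mice. The Nos3 call was lost without TG mouse 2 or 3 of 129, 1 or 2 of AKR/J, 2 of BALB/cJ, 2 of C3H or 1 of C57BL/6J, with values from 0.17 to 0.21. With the 3 strain means of each set as the unit, limma called 0 of all 13499 genes, and so 0 members in either direction. At an unadjusted p under 0.05, 3 members were lower and 1 was higher. The differences between the sets therefore speak of these 6 strains. The heart muscle list had its lowest TG values in the same strains as many members, with means of 9.39 to 9.59 in A/J and 9.42 to 9.48 in C57BL/6J, and 9.52 to 10.65 in the other strains. In this comparison 4 of its 7 genes were lower, 5 of 7 macrophage genes were higher (median 0.27) and 2 of 3 T and NK genes were lower (median -0.33). The macrophage list mean was 10.93 to 11.13 in A/J TG mice, 10.60 and 10.71 in C57BL/6J and 9.87 to 10.33 in the other strains. The part of these cells in the differences was not tested.

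WT levels differed between the sets in few members. In the 4 prone and 3 resistant WT mice 2 members were called lower and 0 higher (all genes: 0.333% and 0.407%), with 7 lower and 1 higher at an unadjusted p under 0.05. Esm1 was at 7.57, 7.68, 7.69 and 9.37 in the prone and 8.68, 8.89 and 8.95 in the resistant WT mice (-0.61 ± 0.12, adjusted p = 0.0168), so AKR/J stood above all resistant strains. Gpihbp1 was at 10.84, 10.86, 11.15 and 11.33 and at 11.30, 11.38 and 11.51 (-0.29 ± 0.06, adjusted p = 0.0411). Array weights left 0 of these calls, and leaving out 1 mouse left 0 to 3.

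Between TG mice of the strains labelled emphysematous (AKR/J and BALB/cJ) and of those labelled as not (129 and C3H), 3 members were higher and 3 lower (all genes: 2.95% and 4.20%). Esm1 (0.32 ± 0.09, adjusted p = 0.0319), Notch4 (0.26 ± 0.05, adjusted p = 0.00539) and Nos3 (0.25 ± 0.07, adjusted p = 0.041) were higher. Prox1 (-0.37 ± 0.07, adjusted p = 0.00412), S1pr1 (-0.24 ± 0.07, adjusted p = 0.0347) and Sele (-0.19 ± 0.04, adjusted p = 0.015) were lower. For Esm1 the TG means were 7.90 in AKR/J and 7.34 in BALB/cJ, beside 7.38 in 129 and 7.23 in C3H, so BALB/cJ lay below 129. The Sele mean of AKR/J (7.28) lay above that of C3H (7.26). The strain means of Notch4, Nos3, Prox1 and S1pr1 did not cross between the labels. For Notch4 the TG values were 10.67, 10.67 and 10.76 in AKR/J and 10.37, 10.40 and 10.50 in BALB/cJ, beside 10.07, 10.20 and 10.28 in 129 and 10.32, 10.46 and 10.47 in C3H, so BALB/cJ and C3H overlapped. The higher count was 1 without TG mouse 3 of 129, 2 or 3 of BALB/cJ or 2 of C3H.

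Marker lists of other cells moved beside the members. Of 7 macrophage genes 4 were higher in TG mice (list mean 9.87 to 11.13, against 9.69 to 10.15 in WT mice), and all 3 measured genes of T and NK cells were lower (8.28 to 9.45 against 9.18 to 9.80). In the type 2 epithelium list 1 of 6 genes was higher, and Sftpc, its surfactant protein, was at 14.21 to 14.46 on every array, the abundance known of lung tissue. Of 5 smooth muscle and pericyte genes 1 was higher and 3 were lower. How far these shifts in tissue make-up enter the members' values was not tested.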

How the data were processed

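The table used holds, as deposited by the authors, probe set values that run from 3.41 to 14.75 and were taken for log2 intensities because of that range. The summarisation, normalisation, software and genome build were not given in the sources used here, nor was the log base. No scaling was added, since array medians already agreed (7.759 to 7.835). Per the labels' protocols, target was made from total RNA with a whole-transcript kit and biotin.

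The table had 25285 probe sets, of which 1 was incomplete and left out. The platform annotation gave 1 symbol for 14539, several for 781 and none for 9964. By Entrez identifier 14480 matched RefSeq, with 0 symbols changed. For 590 genes with more than 1 probe set, the probe set of highest mean was kept. Genes outside the 13499 that resulted were not analysed here.

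The tests (two-sided) came from lmFit and eBayes of limma 3.58.1, run in R 4.3.3. Python 3.11.15 with pandas 2.3.3, numpy 2.4.6 and matplotlib 3.10.9 made the tables and plots. The overall TG against WT comparison had fixed effects of strain and genotype, leaving 17 residual degrees of freedom. Every other comparison was a contrast in a fit of 12 group means, leaving 12. Benjamini-Hochberg adjustment ran over all genes, with a threshold of 0.05. The median residual SD was 0.104, and the number of arrays limits the precision. The fits were tested on simulated data.

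The members and the lists were chosen with earlier results of these data known. All measured members are named. The members given in most detail are those of largest called change in each role group and those called for strain dependence or the difference of effects, and up to 4 genes of each further list are named, with 1 or 2 uncalled genes beside them. Whether replicate numbers pair the samples could not be settled, since most WT groups held 1 mouse.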

Additional observations from a re-analysis of the deposited data

Results flagged for a closer look

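The TG effect on Esm1 differed between the sets of strains, by 0.69 log2 units (prone minus resistant, limma adjusted p = 0.0394), from an interaction contrast. Of the prone strains, AKR/J fell about as far as the resistant strains did. The WT level of Esm1 was 7.57 to 7.69 in A/J and C57BL/6J and 8.68 to 9.37 in the other strains, while TG levels were 6.88 to 8.02 in all, and the call was lost in 13 of 24 fits that left out 1 mouse.

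The TG effect on Ednrb and on Esm1 depended on the strain in limma's moderated F test, with an adjusted p of 0.0125 for Ednrb and 0.0204 for Esm1. For Ednrb the strains ran from -1.59 in C57BL/6J to 0.01 in AKR/J. Groups held at most 3 mice, so single mice were not tested as outliers.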

How the results depend on the processing

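Each of the 34 measured members was refitted for TG against WT under 38 alternatives, 24 of which left out 1 mouse. Call and direction held in 26 members under all of them. The call changed in Car4, Gja4, Procr, Prox1, Sele and Vegfa, and the sign of an uncalled difference changed in Edn1 and Emcn. Edn1 was -0.0047 as the mean of the strain contrasts, -0.0072 without C3H and -0.11 without C57BL/6J, and leaving out 1 mouse gave -0.0471 to 0.0881. Emcn was 0.0041 without 129 and 0.0141 without A/J, and leaving out 1 mouse gave -0.0797 to 0.0141. The causes were not tested.

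The replicate number as a block left 22 members lower and 3 higher for TG against WT, with Sele (adjusted p = 0.066) and Vegfa (adjusted p = 0.0827) no longer called, and 16 lower and 2 higher for prone against resistant TG mice, where Notch4 lost its call (adjusted p = 0.0572). Over 52 same-number pairs the correlation of deviations from group means was -0.154 to 0.128 (median -0.017). These values cannot settle whether the numbers pair the samples, since most WT groups held too few mice to give a deviation.

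Without C57BL/6J 1 member was higher in TG mice. For the difference of effects 0 members were called higher after quantile normalisation, with array weights or without C57BL/6J. Array weights gave 0 members for strain dependence, 0 lower for WT mice, 12 lower and 0 higher in A/J, 1 lower in AKR/J and 2 lower in BALB/cJ. Strain means as the unit gave 0 lower and 0 higher for TG mice, where 0 of all genes were called. The array weights were 0.43 to 1.73.

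Leaving out 1 mouse gave 23 to 25 members lower and 2 to 4 higher over all strains, 20 to 24 lower and 3 higher in the prone strains, and 9 to 16 lower and 0 to 1 higher in the resistant strains. The difference of effects had 0 to 2 higher and 0 to 5 lower, strain dependence 1 to 3, and strain levels in TG mice 29 to 33. TG mice of prone against resistant strains had 15 to 19 lower and 1 to 2 higher, WT mice 0 to 3 lower and 0 to 1 higher, and the emphysema label 2 to 3 lower and 1 to 3 higher. By strain, A/J had 20 to 24 lower and 0 to 1 higher, C57BL/6J 9 to 17 and 1 to 3, BALB/cJ 2 to 6 and 0, 129 1 to 5 and 0 to 1, AKR/J 1 to 4 and 0 to 2, and C3H 1 to 3 and 0. In a strain with 1 WT mouse, that mouse cannot be left out of the strain's own comparison. Without it, the strain adds nothing to the TG minus WT differences, the strain dependence or the WT comparison. The files used here give no signal over background, and the probe sets of Esm1, Prox1 and Sele lie below the median signal of all genes.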
